A study of Mus musculus with 18 samples.

Results

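Across 9 mice on a high-fat diet that were given daily prednisone, weekly prednisone or vehicle, 96 nuclear genes of the mitochondrial respiratory chain and ATP synthase were described in quadriceps muscle and white adipose tissue. The genes were taken by symbol: those starting with Nduf, Sdha, Sdhb, Sdhc, Sdhd, Uqcr, Cox4, Cox5, Cox6, Cox7, Cox8 or Atp5, together with Cyc1. Of 33641 gene symbols 105 qualified by name, 7 of them were left out as pseudogenes, and 2 (Cox7b2 and Cox8c) were listed at 0 in every library. The other 96 reached 1 TPM in at least 3 libraries of each tissue. The lowest of those kept was Cox6b2, with 0.63 to 1.98 TPM over the muscle libraries. By role, 37 genes were assigned to complex I, 8 to its assembly factors, 4 to complex II, 4 to its assembly factors, 9 to complex III, 17 to complex IV and 17 to ATP synthase. Ndufa4 was counted with complex IV, where its protein is now placed, and 80 of the 96 encode structural subunits. Ndufa4l2 stayed in the complex I count by its symbol, Cox7a2l in that of complex IV, and Atp5s and Atp5sl in that of ATP synthase. These were not counted as structural subunits.

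All mice were wild-type males of the inbred strain DBA/2J. They had eaten a high-fat diet for 12 weeks, were about 20 weeks old when treated, and stayed on the diet during 12 weeks of treatment. Prednisone, a synthetic glucocorticoid, was given into the peritoneum at 1 mg/kg in PBS, diluted from a DMSO stock, either once a day (3 mice) or once a week (3 mice), and 3 mice received vehicle daily. Both tissues were taken from each mouse 24 hours after the last injection, which gave 18 libraries.

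Complexes I, III and IV pass electrons from NADH and ubiquinol to oxygen and pump protons across the inner mitochondrial membrane, and ATP synthase uses the returning protons to make ATP. Complex II, succinate dehydrogenase, also belongs to the tricarboxylic acid cycle and pumps no protons. Most subunits are encoded in the nucleus, all of complex II among them, and several subunits of complex IV exist as a form of heart and skeletal muscle and a form of other tissues. Skeletal muscle is rich in mitochondria, white adipocytes hold few, and brown or beige adipocytes hold many.

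Values are TPM, transcript abundances scaled by the authors to the same sum in each library and here summed per gene, so the number of reads behind a value is unknown. Between 11781 and 12200 genes reached 1 TPM in a muscle library and between 13413 and 14076 in an adipose library, and the 15 muscle fibre markers and 10 white adipocyte markers summed higher in every library of their own tissue than in any of the other. In each group the third library held the middle of the 3 values more often than either other library, for 42.3% to 55.8% of 5384 genes in muscle and 44.1% to 54.8% of 8247 in adipose tissue, and the counts of changed genes are therefore also given without it. Whether the third libraries come from separate mice was not settled by the files, and every p-value treats the 3 libraries of a group as 3 mice. Of the adipose libraries 3 held more muscle RNA than the rest: Ckm, muscle creatine kinase, stood at 109 TPM in daily 2, 176 in weekly 2 and 130 in weekly 3, against 13.2 to 35.04 TPM in the other 6. Genes of the mitochondrial genome took between 27.5% and 31.3% of the TPM of muscle libraries and between 12.9% and 16.9% of that of adipose libraries, so a change in them shifts every nuclear value. In whole tissue, fewer cells of a type and less RNA per cell cannot be told apart.

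The 96 genes together took a smaller share of the transcripts in treated mice than in vehicle mice in both tissues, and the order of the regimens differed between the tissues. In muscle they made up 4.79% to 4.88% of all TPM after daily prednisone, 5.13% to 5.27% after weekly prednisone and 5.43% to 5.64% after vehicle, 3 ranges that did not overlap. In adipose tissue the shares were 3.12% to 3.43% after daily, 2.83% to 3.19% after weekly and 3.48% to 3.90% after vehicle, so that both treated ranges lay below that of vehicle and overlapped each other. As shares of the nuclear TPM alone, the muscle ranges were 6.61% to 6.76% after daily, 7.23% to 7.65% after weekly and 7.63% to 8.16% after vehicle, and there the weekly and vehicle ranges met. In adipose tissue the nuclear shares were 3.74% to 4.05% after daily, 3.32% to 3.73% after weekly and 3.99% to 4.51% after vehicle, so the daily and vehicle ranges met. These sums describe the libraries and were not tested.

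The decrease was spread over all 5 complexes in muscle. The 4 complex II genes summed to 1459, 1489 and 1398 TPM in the daily libraries, 1611, 1644 and 1589 TPM in the weekly libraries and 1743, 1785 and 1769 TPM in the vehicle libraries. Their daily mean was 17.97% below that of vehicle, the largest difference of the 5 complexes. Sums of structural subunits were 14.8% lower for complex IV, 13.4% for complex I, 12.2% for complex III and 10.6% for ATP synthase after daily prednisone. After weekly prednisone they were 6.25% to 8.55% lower, with complex II again the furthest from vehicle. In adipose tissue the weekly means were 17.7% below vehicle for complex III, 17.6% for complex IV, 17.1% for ATP synthase and 16.9% for complex I, but only 6.97% for complex II. Complex II thus stood furthest from vehicle in muscle and nearest to it in adipose tissue, a difference between complexes that was not tested.

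**Figure D1:**
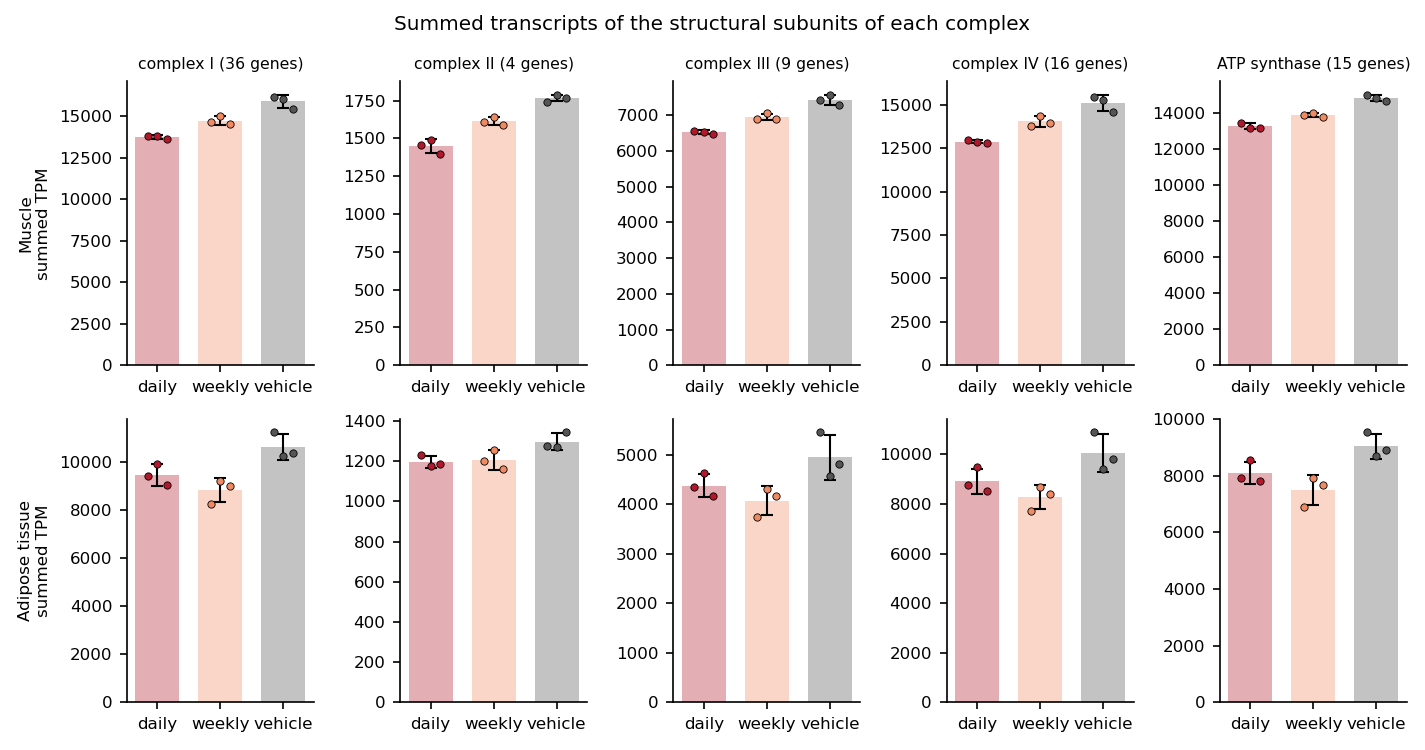
Summed TPM of the structural subunits of each complex (vertical axes, from 0) in daily, weekly and vehicle mice, in muscle (upper row) and adipose tissue (lower row). Points are libraries, bars are means and error bars are the SD of 3 libraries. For complex II in muscle the 3 daily points lie below the 3 weekly points, which lie below the 3 vehicle points, while in adipose tissue vehicle 1 stands above the other vehicle libraries in complexes III and IV.

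In muscle, daily prednisone against vehicle lowered 47 of the 96 genes and raised 0 (limma, Benjamini-Hochberg adjusted p under 0.05 over 12246 genes), where 11.8% of all genes tested fell and 1.91% rose. At an unadjusted p under 0.05, 68 were lower and 2 were higher, where 24.8% of all genes were lower and 5.18% higher. The median log2 fold change of the 96 was -0.18, against -0.09 over all genes tested, and 86 of them lay below 0. Fold changes are differences of group means of log2(TPM + 1), and errors after ± are SE. Daily libraries all lay below vehicle libraries for 73 of the 96 genes, as they did for 27.8% of all genes. The falls were small, at most 0.52 on the log2 scale. Fewer passed under TMM scaling, a rescaling to the bulk of genes, which moved the median of all genes to 0.00 and that of the 96 to -0.08: 17 fell and 2 rose. Without the third library of every group 0 passed, with 47 lower and 1 higher at an unadjusted p under 0.05 (13.1% and 2.94% of all genes), and without daily 3 alone 29 passed. The share of all genes called is not given for TMM scaling or for the fit without daily 3. Those counts describe the 96 genes alone.

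All 4 subunits of complex II fell. Sdha, the flavoprotein that oxidizes succinate, stood at 271, 272 and 263 TPM in daily libraries, against 336, 355 and 341 TPM in vehicle libraries. The groups did not overlap, and Sdha fell by 0.36 ± 0.04 (limma adjusted p = 0.00226). Sdhb, the iron-sulfur subunit, held 429.6, 438 and 418 TPM after daily and 489.5, 508 and 501 TPM after vehicle. Its fall of 0.22 ± 0.04 was the smallest of the 4, and the membrane anchors Sdhc and Sdhd fell by 0.31 ± 0.05 and 0.26 ± 0.04 (limma adjusted p = 0.00915, 0.0068 and 0.00545). Of the 4 complex II assembly factors 1 fell: Sdhaf1, which helps to load iron-sulfur clusters into Sdhb, held 10.5, 11.8 and 11.1 TPM after daily and 14.7, 13.8 and 13.4 TPM after vehicle, lower in each daily library (fell by 0.30 ± 0.07, limma adjusted p = 0.0182).

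Of the 37 complex I genes 21 fell, with a median log2 fold change of -0.22 over the 37. They included the subunit with the NADH site and subunits far from it. Ndufv1, which binds NADH and FMN, held 249, 249.5 and 238 TPM in daily libraries, against 314, 332 and 313 TPM in vehicle libraries. Ndufa2, an accessory subunit of the same arm, held 411, 375 and 373 TPM after daily and 561, 543 and 488 TPM after vehicle. Ndufa11, an accessory subunit in the membrane and the least abundant structural subunit of complex I in both tissues, held 48.0, 50.7 and 48.7 TPM after daily and 66.3, 69.2 and 63.7 TPM after vehicle. For each of these 3 the groups stood apart, and the genes fell by 0.38 ± 0.05, 0.46 ± 0.06 and 0.43 ± 0.06 (limma adjusted p = 0.00306, 0.00368 and 0.00363). Of the 8 complex I assembly factors 2 passed, Ndufaf8 (fell by 0.22 ± 0.06, limma adjusted p = 0.0425) and Ndufaf6 (fell by 0.35 ± 0.10, limma adjusted p = 0.0478).

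Of the 9 complex III genes 6 fell in muscle. Uqcrq, a small subunit and the most abundant transcript of the complex in muscle, held 1149, 1120.0 and 1112 TPM after daily and 1415, 1460.2 and 1368 TPM after vehicle. Uqcrc1, core protein 1, held 502, 517 and 502 TPM after daily and 638, 667 and 612 TPM after vehicle. Cyc1, cytochrome c1, held 424, 439.8 and 422 TPM after daily and 521, 529.9 and 500.0 TPM after vehicle. Daily libraries of all 3 lay below vehicle libraries, with falls of 0.33 ± 0.04, 0.33 ± 0.04 and 0.27 ± 0.04 (limma adjusted p = 0.00296, 0.00332 and 0.0043). Uqcrb, which helps to form the ubiquinone pocket, went the other way without passing the test. It held 835, 809.8 and 831 TPM after daily and 782, 744 and 788 TPM after vehicle, and its log2 fold change of 0.10 (limma adjusted p = 0.143) passed as a rise under TMM scaling (0.20 ± 0.05, limma adjusted p = 0.0433). Uqcrb was singled out after its values were seen.

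Of the 17 complex IV genes 6 fell in muscle. Cox8b, the muscle form of subunit 8 and the most abundant transcript of complex IV there, held 1893, 1889 and 1816 TPM after daily and 2926, 2668 and 2445 TPM after vehicle. Its fall of 0.52 ± 0.07 was the largest of the 96 (limma adjusted p = 0.0041). Cox6a2, the muscle form of subunit 6A, held 1344, 1378 and 1363 TPM after daily and 1826, 1765 and 1671 TPM after vehicle. It fell by 0.36 ± 0.04 (limma adjusted p = 0.00284), and Cox6b1 and Cox4i1, forms found in most tissues, fell by 0.26 ± 0.04 and 0.19 ± 0.04 (limma adjusted p = 0.00649 and 0.0183). Cox5a and Cox7a2l were the other 2 that passed, the second a factor of supercomplexes (fell by 0.17 ± 0.04, limma adjusted p = 0.0341). Cox7a1, the muscle form of subunit 7A, had a log2 fold change of -0.16 with daily libraries all below vehicle libraries and did not pass (limma adjusted p = 0.0711). The paralogues Cox4i2, Cox6a1, Cox6b2, Cox7a2 and Cox8a and the subunits Cox5b, Cox6c, Cox7b, Cox7c and Ndufa4 did not pass either, with log2 fold changes from -0.30 for Cox6a1 to -0.02 for Cox7a2.

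Of the 17 ATP synthase genes 7 fell in muscle. Atp5a1, the alpha subunit of the catalytic head, held 839, 857 and 839.6 TPM after daily and 1122, 1110.0 and 1101 TPM after vehicle. Atp5d, the delta subunit of the central stalk, held 562, 561 and 546 TPM after daily and 740.2, 739 and 680.3 TPM after vehicle. Both were lower in every daily library, by 0.39 ± 0.04 and 0.37 ± 0.05 (limma adjusted p = 0.00202 and 0.00357). The catalytic beta subunit, Atp5b, did not pass: it held 2130.0, 1964 and 2049.6 TPM after daily and 2191, 2191 and 2169 TPM after vehicle. Atp5b was the most abundant transcript of the enzyme in both tissues. The c-ring genes Atp5g1 and Atp5g3 fell by 0.16 ± 0.04 and 0.24 ± 0.04 (limma adjusted p = 0.018 and 0.00516). Atp5j, coupling factor 6 of the peripheral stalk, held 714, 721 and 758 TPM after daily and 624, 657 and 702 TPM after vehicle. All its daily values exceeded all its vehicle values. Its log2 fold change of 0.15 (limma adjusted p = 0.0942) passed as a rise under TMM scaling (0.25 ± 0.06, limma adjusted p = 0.0488), and the gene was singled out after its values were seen.

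Other transcripts moved in the same muscle libraries. The 15 macrophage markers summed to 395 to 610 TPM after daily and 223 to 322 TPM after vehicle, with 5 of 14 tested markers called higher. The 7 slow fibre markers summed to 79.1 to 123 TPM after daily and 30.9 to 34.4 TPM after vehicle, with 3 of 6 called higher. The 15 muscle fibre markers overlapped, at 151002 to 158930.0 TPM after daily and 145466 to 161562 TPM after vehicle. The 10 white adipocyte markers summed to 885 to 2030 TPM after daily and 1586 to 2067 TPM after vehicle, with 1 of 10 called lower. The 9 brown and beige markers summed to 166 to 218 TPM after daily and 198 to 243 TPM after vehicle, with 1 of 6 called lower. The part of these cells in the lower respiratory chain transcripts was not tested.

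Weekly prednisone against vehicle in muscle gave 0 called genes among the 96 in either direction by limma, where 0.0163% of all genes tested were called lower and 0.0327% higher. At an unadjusted p under 0.05, 39 were lower and 2 higher, where 13.3% of all genes were lower and 2.1% higher. The median log2 fold change of the 96 was -0.08, against -0.07 over all genes tested. Weekly libraries all lay below vehicle libraries for 45 of the 96, against 19.3% of all genes tested. Ndufa2 had the smallest p. Its weekly values of 403, 422 and 393 TPM lay below its vehicle values of 561, 543 and 488 TPM, a log2 fold change of -0.38 (limma adjusted p = 0.105). In the other role groups the smallest p belonged to Atp5a1 (-0.23), Ndufaf8 (-0.33), Uqcrq (-0.21), Sdhaf1 (-0.29), Cox8b (-0.27) and Sdhc (-0.18), each a log2 fold change with limma adjusted p of 0.109 to 0.176. For 75 of the 96 genes the weekly mean in muscle lay between the daily mean below it and the vehicle mean above it. The share of all genes with this order is not given, so the count does not set the 96 apart.

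Compared with daily prednisone, weekly prednisone left 4 of the 96 genes higher and 0 lower in muscle, where 0.915% of all genes tested were higher and 0.857% lower. Sdha held 327, 314 and 323 TPM in weekly libraries, against 271, 272 and 263 TPM in daily libraries. The other 3 were Cox6a2, Ndufv1 and Ndufa9, an accessory subunit near the ubiquinone channel, and the 4 differed by 0.26 ± 0.04, 0.22 ± 0.04, 0.23 ± 0.05 and 0.19 ± 0.04 on the log2 scale (SE, limma adjusted p = 0.0193, 0.0435, 0.0482 and 0.0493). Weekly libraries all lay above daily libraries for 52 of the 96, against 14.7% of all genes tested. In the groups with no call the smallest p belonged to Uqcrc1 (0.18), Atp5a1 (0.17), Ndufaf6 (0.33) and Sdhaf4 (0.12), each a log2 fold change with limma adjusted p of 0.0756 to 0.5. Leaving out any single library left 0 to 2 calls, and 0 without daily 3, weekly 1 or weekly 3. Without the third library of every group 0 passed, with 13 higher at an unadjusted p under 0.05 (4.22% of all genes).

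In adipose tissue, weekly prednisone against vehicle lowered 21 of the 96 genes and raised 0, where 1.72% of all 14150 genes tested fell and 5.72% rose. The median log2 fold change of the 96 was -0.22, against 0.13 over all genes, so the respiratory chain stood below vehicle while most genes tested stood above it. Weekly libraries lay below vehicle libraries for 66 of the 96, against 7.88% of all genes. The falls comprised 12 of 37 complex I genes, 3 of 9 of complex III, 4 of 17 of complex IV and 2 of 17 of ATP synthase, and 0 of complex II or of either set of assembly factors. TMM scaling moved the median of all genes by more than 0.1, to 0.00, and that of the 96 to -0.36, and 29 then fell. The share of all genes that fell under this scaling is not given. Leaving out vehicle 3 left 0 calls, weekly 3 left 1, vehicle 1 or weekly 1 left 4, and vehicle 2, daily 1 or daily 3 left 8. Without the third library of every group 0 passed, with 38 lower at an unadjusted p under 0.05 (3.3% of all genes).

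Ndufs8, a core iron-sulfur subunit of complex I, held 102.1, 106.9 and 108.05 TPM in weekly fat, against 136, 136 and 130.3 TPM in vehicle fat. Ndufb2, an accessory subunit of the membrane arm, held 174, 196 and 210.4 TPM after weekly and 295, 264 and 256 TPM after vehicle. Ndufc2, which also lies in the membrane arm, held 244, 255 and 272 TPM after weekly and 366, 352 and 328 TPM after vehicle. No weekly value of these 3 reached a vehicle value, and they fell by 0.34 ± 0.06, 0.49 ± 0.08 and 0.44 ± 0.08 (limma adjusted p = 0.0147, 0.0167 and 0.018). Of the 12 complex I genes that fell, 6 (Ndufb2, Ndufb6, Ndufb7, Ndufb8, Ndufb9 and Ndufb11) carry the Ndufb prefix, given to subunits of the membrane arm. Ndufb3, Ndufb4, Ndufb5 and Ndufb10 carry it too and did not pass. This grouping was made with the called genes in view and was not tested.

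In complex III the genes that fell in weekly fat were Uqcrc1, Uqcr10 and Cyc1, by 0.30 ± 0.06, 0.37 ± 0.09 and 0.24 ± 0.06 (limma adjusted p = 0.0297, 0.0434 and 0.0457). In complex IV the genes that passed were forms of most tissues. Cox8a, the most abundant transcript of complex IV in fat, held 1229, 1284 and 1217 TPM after weekly and 1519, 1427 and 1436 TPM after vehicle and fell by 0.23 ± 0.06 (limma adjusted p = 0.0414). Cox6b1, Cox4i1 and Cox7a2 fell by 0.37 ± 0.08, 0.31 ± 0.07 and 0.36 ± 0.09 (limma adjusted p = 0.0362, 0.0373 and 0.0464). Cox8b, the muscle form of subunit 8, did not pass, but its log2 fold change of -0.42 was the lowest of complex IV. It held 247, 299 and 284 TPM after weekly and 446, 314 and 359 TPM after vehicle. In ATP synthase, Atp5g3 of the c-ring fell by 0.33 ± 0.06 and Atp5l, subunit g of the membrane part, by 0.32 ± 0.08 (limma adjusted p = 0.0205 and 0.0421). The subunits of complex II stood at log2 fold changes from -0.30 for Sdhb (95% interval -0.49 to -0.11) to 0.00 for Sdhc (95% interval -0.19 to 0.20), and none passed. Among assembly factors the smallest p belonged to Sdhaf1 (-0.25) and Ndufaf8 (-0.30), with limma adjusted p of 0.076 and 0.0966.

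Some transcripts of other cells moved with weekly treatment in fat. The 15 muscle fibre markers summed to 334 to 2081 TPM after weekly and 297 to 446 TPM after vehicle. With the muscle transcripts as a covariate 59 of the 96 genes fell and 1 rose, where 4.38% of all genes fell and 24.9% rose. Without the 3 libraries with more muscle RNA the weekly group is weekly 1 alone, the library with the lowest share of the 96 genes, and its difference from vehicle is judged by the spread of the other groups. That fit called 39 lower and 1 higher, where 3.09% of all genes fell and 12% rose, and it shared 18 of the 21 calls. The gene called higher in both was Ndufa4l2, a relative of Ndufa4 that hypoxia induces. It was high in weekly 1 alone, with 41.7, 21.5 and 21.4 TPM after weekly and 25.5, 25.5 and 29.6 TPM after vehicle, and did not pass with all libraries (limma adjusted p = 0.997). The 7 fibroblast and progenitor markers summed to 1696 to 2003 TPM after weekly and 1298 to 1344 TPM after vehicle, with 5 of 7 called higher, and 5 of 15 macrophage markers were called higher. The 5 mesothelial markers summed to 69.9 to 125 TPM after weekly and 46.2 to 73.1 TPM after vehicle, with 2 of 5 called higher, and the 6 endothelial markers to 362 to 453 TPM after weekly and 329 to 355 TPM after vehicle, with 0 of 6 called. The 9 brown and beige adipocyte markers summed to 163 to 195 TPM after weekly and 233 to 304 TPM after vehicle, and the 10 white adipocyte markers to 38012 to 38987 TPM after weekly and 39729 to 40299 TPM after vehicle. The part of these cells in the lower values was not tested.

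Daily prednisone against vehicle in adipose tissue gave 0 called genes among the 96 by limma, where 0% of all genes tested were called lower and 0.00707% higher. At an unadjusted p under 0.05, 34 were lower and 0 higher, where 4.76% of all genes were lower and 4.47% higher. The median log2 fold change was -0.15, against 0.01 over all genes, and 91 of the 96 lay below 0. Daily libraries lay below vehicle libraries for 43 of the 96, against 7.93% of all genes. Ndufc2 had the smallest p, with 273, 305 and 261 TPM after daily and 366, 352 and 328 TPM after vehicle, all daily values the lower. Its log2 fold change was -0.32 ± 0.08 (SE, limma adjusted p = 0.313). In the other role groups the smallest p belonged to Atp5k, subunit e of ATP synthase (-0.30), Ndufaf3 (-0.41), Cox8a (-0.17), Sdhaf1 (-0.21), Sdhd (-0.15) and the Rieske protein Uqcrfs1 (-0.17), with limma adjusted p of 0.339 to 0.504. Between the regimens, weekly against daily, 0 of the 96 passed in fat by limma, where 0.297% of all genes were called higher and 0.0141% lower. At an unadjusted p under 0.05, 8 were lower and 0 higher, where 1.54% of all genes were lower and 14.3% higher. The smallest p of each role group belonged to Ndufb8 (-0.22), Uqcrc1 (-0.18), Cox4i1 (-0.19), Atp5b (-0.22), Sdhb (-0.14), Ndufaf6 (0.26) and Sdhaf4 (-0.09), each a log2 difference with limma adjusted p of 0.214 to 0.677. The mean of 72 of the 96 genes in fat was lowest after weekly, with daily between it and vehicle. As in muscle, the share of all genes with this order is not given.

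**Figure D2:**
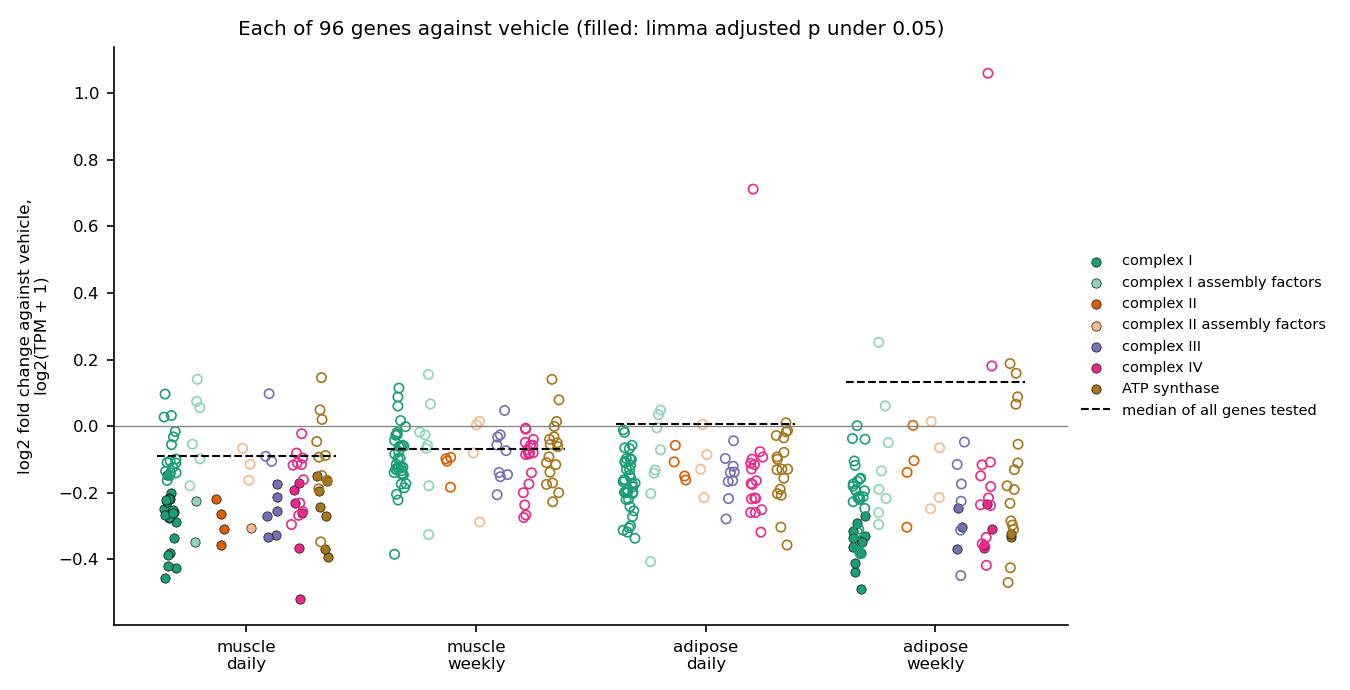
Log2 fold change against vehicle (vertical axis, on log2 of TPM + 1) of each of the 96 genes after daily and weekly prednisone in each tissue, in columns by role. Filled points passed limma at an adjusted p under 0.05, open points did not, and dashed lines are the median of all genes tested. Filled points lie below 0 in every column that has them, and in weekly adipose tissue they lie below a median of 0.13. The highest open points, in both adipose comparisons, are Cox6a2.

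The 2 comparisons with many calls, daily in muscle and weekly in fat, use different libraries of the same vehicle mice. They shared 12 genes, 25.5% of the 47 and 57.1% of the 21: Atp5g3, Cox4i1, Cox6b1, Cyc1, Ndufa2, Ndufa11, Ndufb2, Ndufb8, Ndufb9, Ndufb11, Ndufs8 and Uqcrc1. With 47 of the 96 called in muscle, many of the 21 would be shared without any link. The overlap was not tested. Ndufb9, the most abundant complex I transcript in both tissues, fell by 0.26 ± 0.04 after daily in muscle and by 0.34 ± 0.07 after weekly in fat. Of the 96 genes 40 were called in neither.

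Whether the regimens acted differently in the 2 tissues was tested on the muscle minus adipose difference of each mouse. For the daily effect 0 of the 96 passed by limma, where 0.0341% and 0.017% of all 11737 genes tested were called higher and lower in muscle. At an unadjusted p under 0.05, 1 was higher and 6 were lower, where 2.65% of all genes were higher and 11.1% lower. Of the role groups the complex II subunits had the lowest median, -0.16 over 4 genes: Sdha differed by -0.30 ± 0.09 (SE, limma adjusted p = 0.21). Elsewhere the smallest p belonged to Ndufs4 (0.30), Atp5a1 (-0.26), Cox6a2 (-1.08), Uqcrc1 (-0.21), Ndufaf1 (0.19) and Sdhaf3 (-0.17), with limma adjusted p of 0.215 to 0.478. For the weekly effect 0 passed as well by limma, where 0.0596% and 2.72% of all genes were called higher and lower. At an unadjusted p under 0.05, 20 were higher and 1 was lower, where 1.68% of all genes were higher and 26.4% lower. The median of the 96 was 0.14, against -0.19 over all genes. Ndufb2 had the smallest p, with a difference of 0.36 ± 0.11 (SE, limma adjusted p = 0.08). Next by role group were Cox7a2 (0.35), Uqcr10 (0.34), Atp5l (0.26), Ndufaf2 (0.26), Sdhb (0.21) and Sdhaf4 (0.22), with limma adjusted p of 0.0876 to 0.369. An effect that passed in one tissue and not in the other is therefore not shown to differ between them.

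In vehicle mice, muscle held more of most of these transcripts than fat. Of the 96 genes 69 were higher and 17 lower in muscle, where 13.1% of all genes tested were higher and 73.9% lower, and the median was 0.59 against -0.88 over all genes. TMM scaling moved the median of all genes to 0.12 and the counts to 89 higher and 3 lower, and rescaling without the mitochondrial genome gave 76 higher and 10 lower. Without the third library of every group 63 were higher and 15 lower. The share of all genes called is not given for these fits, so their counts describe the 96 genes alone. The 69 stayed above 0 under TMM scaling and under the rescaling, but 12 of the 17 turned to above 0 under TMM scaling. By role, 31 of 37 complex I genes, all 4 of complex II, 8 of 9 of complex III, 9 of 17 of complex IV and 15 of 17 of ATP synthase were higher. In complex I the smallest p belonged to Ndufc1, Ndufb5 and Ndufs7, higher by 1.39, 1.53 and 1.41 on the log2 scale. The largest differences in complexes II and III were Sdhb (0.88) and Uqcrc1 (1.06), with limma adjusted p of 3.25e-06 and 3.71e-07. Assembly factors were split as deposited: 5 of 8 for complex I and 2 of 4 for complex II were lower in muscle, as were 73.9% of all genes. All 7 of these turned to above 0 under TMM scaling. Ndufaf5 and Ndufaf6 were higher in muscle, by 1.34 and 1.21 on the log2 scale.

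Several paralogues of complex IV split by tissue. Cox6a2 held 1826, 1765 and 1671 TPM in vehicle muscle, against 7.82, 3.67 and 6.99 TPM in vehicle fat, and Cox6a1, its counterpart in most tissues, held 142, 116 and 117 TPM in muscle and 1205, 1122 and 1194 TPM in fat. The 2 forms nearly replaced each other: their muscle minus adipose log2 differences were 7.99 ± 0.32 and -3.23 ± 0.15 (SE, limma adjusted p = 1.11e-08 and 3.11e-08). Cox8b held 2926, 2668 and 2445 TPM in muscle and 446, 314 and 359 TPM in fat, and Cox8a 158, 147 and 143 TPM in muscle and 1519, 1427 and 1436 TPM in fat (log2 differences of 2.85 and -3.28). Cox8b thus kept 18.03% to 22.7% of the Cox8 transcripts in vehicle fat, where Cox6a2 kept 0.326% to 0.645% of the Cox6a transcripts. Cox8b is also a known transcript of brown adipocytes, and their marker Ucp1 was present in these fat samples at 113, 57.0 and 70.0 TPM. Cox7a1 held 1070.5, 1130.1 and 1083 TPM in muscle and 79.2, 49.5 and 73.1 TPM in fat, a difference of 4.03, while Cox7a2 differed by -0.53 and turned to 0.62 under TMM scaling.

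The scarce forms were all lower in muscle as deposited. Cox4i2, a form of lung and of hypoxia, held 4.83, 3.58 and 4.16 TPM in muscle and 10.7, 12.8 and 13.5 TPM in fat. Cox6b2, known from testis, held 1.47, 1.98 and 1.51 TPM in muscle and 11.7, 13.1 and 7.43 TPM in fat. Ndufa4l2 held 9.11, 10.4 and 8.88 TPM in muscle and 25.5, 25.5 and 29.6 TPM in fat. Their log2 differences were -1.37, -2.12 and -1.41 (limma adjusted p = 0.000212, 8.76e-06 and 5.4e-05). Under TMM scaling Cox6b2 still passed, and Cox4i2 and Ndufa4l2 did not. Of each pair, these forms made up under 4% of the transcripts in every library but 1, the weekly 1 fat library, where Ndufa4l2 reached 6.12% of Ndufa4 and Ndufa4l2.

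**Figure D3:**
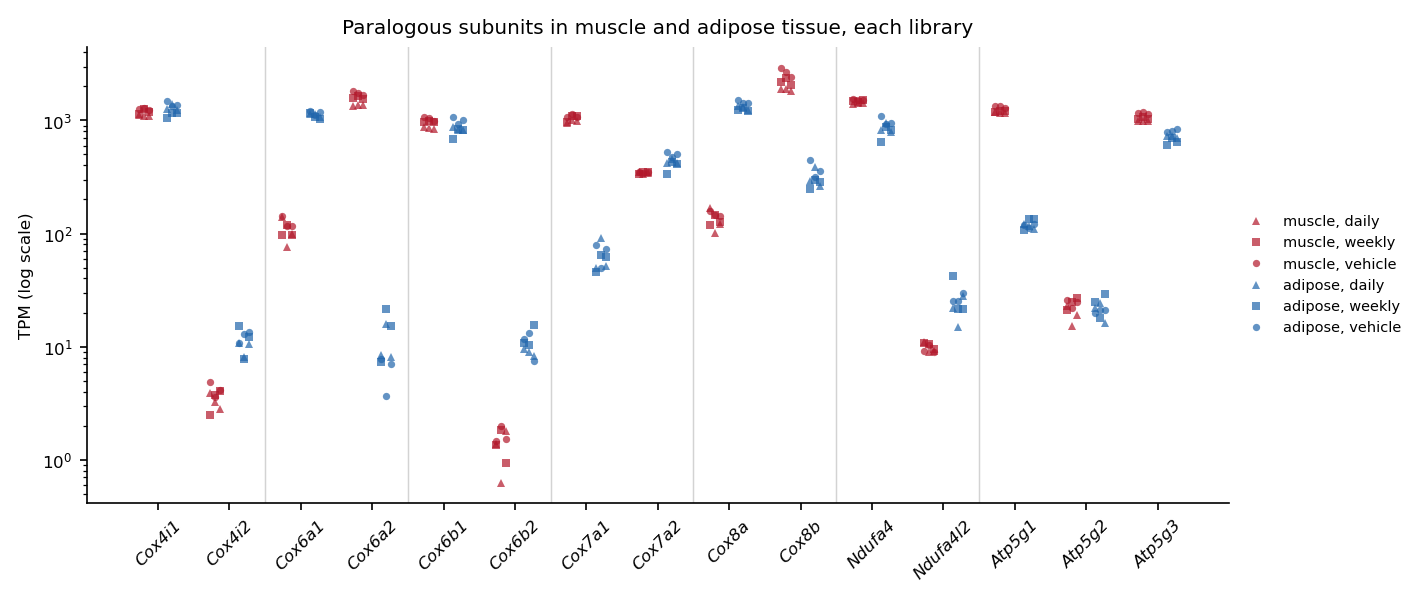
TPM of paralogous subunits in every library (vertical axis, log scale), with muscle in red and adipose tissue in blue and the regimens by symbol. Cox6a1 and Cox8a lie above 1000 TPM in all adipose libraries and below 170 TPM in all muscle libraries, and Cox6a2, Cox7a1, Cox8b and Atp5g1 lie higher in every muscle library than in any adipose library. The Cox6a2 points in adipose tissue above 15 TPM belong to daily 2, weekly 2 and weekly 3.

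Transcripts that mark the other tissue were present in both. Ckm in fat was 0.0745% to 1.14% of Ckm in muscle of the same mouse, and Adipoq, adiponectin of adipocytes, in muscle was 1.28% to 4.16% of that in fat. If muscle RNA in fat is scaled by Ckm, it would carry 15.6% to 87.6% of the Cox6a2 measured in a fat library, at most 19.2% of Cox7a1, 10.3% of Atp5g1 and 9.09% of Cox8b, and under 5% of each other gene. If fat RNA in muscle is scaled by Adipoq, it would carry 19.2% to 33.8% of Cox6a1, 16.7% to 36.0% of Cox8a and 10.2% to 48.4% of Cox6b2 measured in muscle, and over 5% of 18 genes in at least 1 library, Ndufa4l2 (up to 10.5%) and Cox4i2 among them. In weekly 2 and weekly 3 fat the Cox6a2 values of 21.6 and 15.1 TPM would be 86.8% and 87.6% carried over, so Cox6a2 in fat, with a log2 fold change of 1.06 after weekly (limma adjusted p = 0.101), moved with that RNA, and the part of that RNA in it was not tested.

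The c-ring of ATP synthase is encoded by 3 genes, Atp5g1, Atp5g2 and Atp5g3, whose mature proteins are the same and whose import sequences differ. Muscle and fat drew on them in different proportions. Atp5g1 held 1344, 1332 and 1292 TPM in vehicle muscle, against 119, 111 and 122 TPM in vehicle fat, the largest tissue difference of ATP synthase (3.48 ± 0.09 on the log2 scale, SE, limma adjusted p = 5.9e-09). Atp5g3 held 1171, 1190.5 and 1149 TPM in muscle and 798, 806 and 845 TPM in fat (0.52), and Atp5g2 25.7, 22.2 and 24.8 TPM in muscle and 19.9, 20.9 and 21.1 TPM in fat. Atp5g1 made up 52.3% to 52.9% of the 3 in vehicle muscle and 11.9% to 12.7% in vehicle fat.

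The starts of the 3 genes are shown because Atp5g1 differed most between the tissues among ATP synthase genes while all 3 encode the same mature protein. Each window runs from 250 bases before to 50 bases after the start of the gene on the minus strand, from RefSeq on GRCm38.p6, with matches to searched motifs in capitals. The Atp5g2 window lies inside the gene as GENCODE M21 places it, with a start at chr15:102672352. The motifs were GCGCANGCG of NRF-1, TNAAGGTCA of ERR, CCGGAAGT of ETS factors such as GABP and AAGATGGCG of YY1, on both strands. The Atp5g1 window is chr11:96075582-96075881 and holds none of the 4, the Atp5g2 window is chr15:102670998-102671297 and holds NRF-1 on both strands in 1 overlapping stretch, and the Atp5g3 window is chr2:73911277-73911576 and holds ERR and then NRF-1, each on the opposite strand.
Atp5g1: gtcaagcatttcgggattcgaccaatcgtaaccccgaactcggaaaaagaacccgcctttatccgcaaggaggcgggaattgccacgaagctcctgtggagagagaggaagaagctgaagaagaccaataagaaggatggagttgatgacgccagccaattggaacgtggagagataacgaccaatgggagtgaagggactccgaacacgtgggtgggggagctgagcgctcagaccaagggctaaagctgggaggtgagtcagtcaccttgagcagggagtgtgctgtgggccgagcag
Atp5g2: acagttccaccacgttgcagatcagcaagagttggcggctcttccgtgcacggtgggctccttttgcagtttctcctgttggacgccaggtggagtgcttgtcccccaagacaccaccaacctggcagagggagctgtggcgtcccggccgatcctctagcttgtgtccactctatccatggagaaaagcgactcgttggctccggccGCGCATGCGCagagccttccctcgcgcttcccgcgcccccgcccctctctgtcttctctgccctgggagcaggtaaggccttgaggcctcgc
Atp5g3: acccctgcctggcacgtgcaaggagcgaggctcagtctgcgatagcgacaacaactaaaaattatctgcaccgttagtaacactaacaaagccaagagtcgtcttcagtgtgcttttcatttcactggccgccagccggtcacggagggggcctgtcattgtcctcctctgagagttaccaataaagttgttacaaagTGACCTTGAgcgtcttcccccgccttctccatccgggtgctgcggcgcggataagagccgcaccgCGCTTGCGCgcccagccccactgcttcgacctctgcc
A match is a run of letters and not a measured binding site. Of the 96 genes 80 had a window in RefSeq, 3 of them under another symbol, and 35 of the 80 (43.8%) held at least 1 of the 4 motifs, against 13.2% of all 27025 genes with a window. The NRF-1 motif was in 24 of the 80 (30%, against 7.03% of all genes), YY1 in 9 (11.2% against 1.64%), ETS in 5 (6.25% against 4.31%) and ERR in 3 (3.75% against 1.43%), the last in Atp5g3, Ndufb4 and Sdhd. Cox6a1 held NRF-1 and Cox8a ETS motifs. Cox7a1 and Cox8b held none of the 4, as was the case for most of the 80 genes, and no match was found for Cox7a2 either. A difference in motifs between muscle forms and forms of most tissues was not tested.

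Within fat the share of Atp5g1 was highest in the weekly libraries, without passing a correction for the number of shares compared. It was 13.3% to 13.9% of the 3 genes after daily, 14.7% to 16.5% after weekly and 11.9% to 12.7% after vehicle, 3 ranges that did not overlap. The weekly and vehicle means differed by 3.37 percentage points (exact two-sided permutation test, p = 0.1, the smallest that 3 against 3 libraries allow, or 0.429 adjusted over 60 comparisons of shares). Atp5g1 was higher in muscle than in fat, and the weekly fat libraries 2 and 3 held more muscle RNA than weekly 1, where the share was 14.7%. In muscle the share was 53.8% to 54.1% after daily, 52.8% to 53.4% after weekly and 52.3% to 52.9% after vehicle. The shares of Cox6a2, Cox7a1 and Cox8b in muscle differed by at most 1.8 percentage points between group means, while Cox6a2 and Cox8b themselves fell after daily prednisone. Cox7a1 made up 73.2%, 74.8% and 74.3% of Cox7a transcripts after daily, 74.3%, 75.8% and 75.7% after weekly and 75.2%, 76.8% and 75.6% after vehicle (exact permutation p = 0.1 for daily against vehicle, or 0.429 adjusted over the 60 comparisons).

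Shares of transcripts within a gene also differed by tissue. Of 74 genes with several transcripts, 71 had the same leading transcript in both tissues. A transcript share of Ndufaf6 differed by 14.7 percentage points. Atp5c1, the gamma subunit that turns inside the head of ATP synthase, was the single gene with a share that differed by over 15 percentage points. Its 2 leading coding transcripts differ by exon 9 of 10, a run of 37 bases on the minus strand of chromosome 2 at chr2:10056770-10056806 (GRCm38, GENCODE M21). The coding sequence reaches only the start of this exon and ends at the first TAA in it. The reading frames hold 298 codons with the exon and 297 without it. Muscle is known to skip this exon. The exon is printed in capitals with 12 bases of the neighbouring exons on each side, from the GENCODE M21 transcripts.
Atp5c1 exon: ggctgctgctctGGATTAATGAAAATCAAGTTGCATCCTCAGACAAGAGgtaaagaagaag
The form without the exon held 632, 634 and 631 TPM in daily, 686, 655 and 679 TPM in weekly and 714, 715 and 725 TPM in vehicle muscle. The form with it held 59.9, 55.2 and 53.0 TPM in daily, 67.8, 61.4 and 63.9 TPM in weekly and 70.3, 68.0 and 68.5 TPM in vehicle muscle. The form without the exon therefore made up 91.0% to 92.3% of the 2 in all 9 muscle libraries, whatever the regimen. In fat it held 241, 253 and 230.3 TPM after daily, 213, 243 and 244 TPM after weekly and 290.5, 289 and 268 TPM after vehicle, and the form with it 154, 156 and 159.8 TPM after daily, 149, 154 and 144 TPM after weekly and 155, 144 and 162 TPM after vehicle. Its share in fat was 59.0% to 61.9% after daily, 58.8% to 63.0% after weekly and 62.4% to 66.8% after vehicle. The daily range lay below that of vehicle (exact permutation p = 0.1, or 0.429 adjusted over 60 comparisons), and the weekly and vehicle ranges overlapped.

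**Figure D4:**
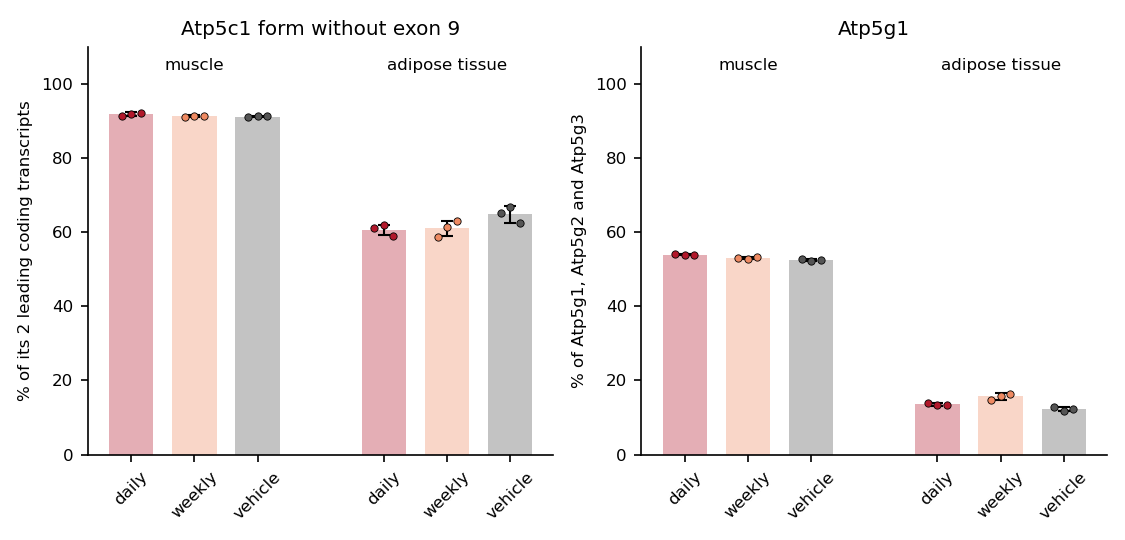
Share of the Atp5c1 form without exon 9 among its 2 leading coding transcripts (left) and share of Atp5g1 among the 3 c-ring genes (right), in percent (vertical axes), in daily, weekly and vehicle mice of each tissue. Points are libraries, bars are means and error bars are the SD of 3 libraries. Both shares stand higher in muscle than in adipose tissue in every library, and the weekly adipose points of Atp5g1, at 14.7% to 16.5%, lie above the others of that tissue.

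Genes around the chain are set beside the 11.8% of all genes that fell and the 1.91% that rose in muscle after daily prednisone. Of 35 assembly factors outside the 96, 6 fell and 0 rose, a share not far from that of all genes, among them Coa5 and Higd2a, for complex IV, and Ecsit and Timmdc1, for complex I (fell by 0.28 ± 0.05, 0.30 ± 0.06, 0.25 ± 0.05 and 0.27 ± 0.06, limma adjusted p = 0.00709, 0.00984, 0.00915 and 0.0255). Of 14 genes of the mobile carriers and of ubiquinone synthesis 5 fell and 1 rose. Coq8a, Coq9 and Coq10a, of ubiquinone synthesis and handling, fell by 0.72 ± 0.12, 0.30 ± 0.05 and 0.35 ± 0.04, and Cycs, cytochrome c, rose by 0.25 ± 0.07 (limma adjusted p = 0.00707, 0.00646, 0.00273 and 0.0355). Cytochrome c thus rose while its docking partner Cyc1 fell. Of 15 transcription regulators of these genes 2 fell, close to the share of all genes: Esrra, the receptor ERR alpha, by 0.34 ± 0.06 and Ppard by 0.23 ± 0.06 (limma adjusted p = 0.00743 and 0.0308). Of 5 genes of ATP synthase inhibition and ATP export, Slc25a4, the adenine nucleotide carrier of muscle, and the phosphate carrier Slc25a3 fell by 0.23 ± 0.05 and 0.31 ± 0.04, and Slc25a5, another adenine nucleotide carrier, rose by 0.21 ± 0.06 (limma adjusted p = 0.0139, 0.00385 and 0.0381). Of the 13 protein genes of the mitochondrial genome 2 rose and 3 fell. Their values are to be read with care, since the nucleus holds copies of them and reads from those copies were not measured.

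In weekly fat, where 1.72% of all genes fell, 3 of the 35 assembly factors fell, Higd1a, Coa3 and Cox16, by 0.43 ± 0.08, 0.28 ± 0.07 and 0.31 ± 0.08, and Coq7, a hydroxylase of ubiquinone synthesis, fell by 0.39 ± 0.07 (limma adjusted p = 0.0218, 0.0486, 0.0489 and 0.0187). None of 14 regulators passed there. After weekly against daily prednisone in muscle Coq10a and Ppard were higher by 0.24 ± 0.04 and 0.37 ± 0.06 (limma adjusted p = 0.0241 and 0.0217), both of which had fallen after daily.

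Within each complex the transcripts were far from equal. Over the 9 muscle libraries the most and least abundant structural subunits of complex I were Ndufb9 (1047) and Ndufa11 (57.5), as mean TPM, and of complex II Sdhc (589) and Sdhd (244). In complex III they were Uqcrq (1256) and Uqcrc2 (292), in complex IV Cox8b (2253) and Cox6b2 (1.43), and in ATP synthase Atp5b (2122) and Atp5g2 (22.5). Fat kept the same extremes in complexes I and II and in ATP synthase. In complex III of fat Uqcr11 led (991), and in complex IV Cox8a led (1333) and Cox6a2 was last (10.5).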

How the data were processed

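RNA-seq of quadriceps and white adipose tissue from 9 mice gave 18 libraries. The deposited table holds TPM for 105129 transcripts, computed by the authors. The submitters' processing notes name Trimmomatic, HISAT2, kallisto and the mm10 build, with no role or version, and read counts are not given in the sources used here. TPM is relative within a library, so a change in abundant transcripts shifts all others.

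Transcripts were summed per symbol. Genes with at least 1 TPM in 3 libraries of a tissue were tested as log2(TPM + 1) with limma 3.58.1 (trend on, 3 regimens, R 4.3.3), and Benjamini-Hochberg adjustment ran over all 12246 genes of muscle, 14150 of adipose tissue or 11737 in both. Fold changes on this scale understate the change of low genes. Tissues and tissue-by-regimen differences were fitted on the muscle minus adipose difference of each mouse. The procedure was tested on simulated data. Alternatives were TMM scaling, rescaling without the mitochondrial genome, pseudocounts of 0.1 and 5, no filter, a replicate block, a covariate or omission for muscle transcripts in fat, and leaving out libraries. Per comparison and role, the text names up to 3 called genes with the smallest p, or 1 where none passed, with the paralogues, complex II and the most and least abundant subunits; up to 4 genes are named of other lists. Atp5b, Atp5j, Uqcrb, Cox5a, Cycs and the full lists of genes called in fat or in both tissues were chosen with values in view. The members and lists were chosen with earlier results of these data known. Antisense and near-identical genes could share reads. 94 of the 96 genes had 1 position in GENCODE M21.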

Additional observations from a re-analysis of the deposited data

How the results depend on the processing

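In muscle after daily prednisone, against 47 of 96 genes called, TMM scaling called 19, the fit without the third library of every group 0, and leaving out 1 library 29 (without daily 3) to 49. For weekly against daily in muscle, against 4, TMM scaling called 1, rescaling without the mitochondrial genome 8, a pseudocount of 5 and no filter 2 each, the fit without the third libraries 0, and leaving out 1 library 0 to 2. For weekly against vehicle in adipose tissue, against 21, no filter called 4, the fit without the third libraries 0, the fit without the libraries with muscle transcripts, whose weekly group is weekly 1 alone and assumed to vary like the others, 40, the covariate for those transcripts 60, and leaving out 1 library 0 (without vehicle 3) to 27 (without weekly 2). For weekly against daily in adipose tissue, against 0, the covariate called 15, of which Ndufa4l2 was higher (0.68) and the rest were lower. Counts of called genes in this section cover the 96 genes alone. They are not set beside the share of all genes called in the same fits. The fits without libraries or filter had fewer samples or more genes, and the cause of the other changes was not tested. In muscle against adipose tissue, TMM scaling turned these log2 differences above 0: Ndufb3 0.047, Ndufaf7 0.44, Ndufaf3 0.20, Cox7a2 0.62, Sdhaf2 0.68, Ndufaf2 0.50, Ndufa7 0.75, Ndufc2 0.70, Sdhaf4 0.60, Cox7a2l 0.85, Ndufaf8 0.82, Ndufaf1 0.91 and Cox4i1 1.01. Rescaling without the mitochondrial genome turned Ndufaf1 to 0.079.

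Library numbers in the labels did not pair the regimens, since same-numbered libraries had residual correlations of -0.12 to 0.106 in muscle and -0.0632 to 0.192 in adipose tissue. With the number as a replicate block, 48 genes were called in muscle after daily prednisone, 0 for weekly against daily in muscle and 8 for weekly against vehicle in adipose tissue. Depth is unknown for TPM, so the precision of low values such as Cox6b2 in muscle cannot be given. With 3 libraries a group, shares cannot reach a permutation p below 0.1.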
